A study of Mus musculus with 6 samples.

Results

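Pln and Cacng6 encode regulators of calcium handling in muscle cells. Both genes were chosen by name, with their difference between pulmonary artery banding (PAB) and sham already known from these libraries, and they are 2 of the 617 genes in the deposited table. That table is itself selected on the same contrast, so the levels and differences of Pln and Cacng6 are given as a description, with no test read from them.

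Pln encodes phospholamban, a small protein of the sarcoplasmic reticulum (SR) membrane that holds back the calcium pump SERCA. Phosphorylation of phospholamban by protein kinase A or by the calcium/calmodulin-dependent kinase CaMKII lifts that inhibition, which speeds calcium uptake and relaxation of the heart muscle cell. Cacng6 encodes a gamma subunit of voltage-gated calcium channels, a membrane protein that joins the pore-forming subunit and is known to lower the current of T-type channels when expressed with them in cells.

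RNA of right ventricle (RV) tissue was sequenced from WT mice of the strain C57/BL6J. The labels give the mouse as organism, although their extraction protocol mentions a rat. In PAB the pulmonary artery is narrowed so that the RV ejects against a raised pressure, and the sham group had the operation without the band. Surgery was on postnatal day 1 and harvest on postnatal day 7 in both groups. There were 3 sham and 3 PAB libraries, and the labels do not say whether a library is 1 animal, so the spread between libraries may be in part technical. Each value is a number of reads after division by the size factor of its library, called normalized reads here. The smallest size factor was 0.939 (PAB replicate 1) and the largest 1.07 (sham replicate 2). The total depth of a library is unknown because the table holds a selection of genes.

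Both genes were lower in PAB, Pln to less than the lowest sham level in each library and Cacng6 to a few reads. The sham libraries held 21385, 21925 and 27039 normalized reads of Pln in replicates 1, 2 and 3, and the PAB libraries held 9037, 10319 and 12438. The highest Pln value in PAB was below the lowest in sham, so the groups did not overlap, which holds for 97.1% of all listed genes, and replicate 3 was the highest library of each group. The mean of Pln was 23450 ± 3120 (SD, n = 3) in sham and 10598 ± 1717 (SD, n = 3) in PAB, which is 2.21-fold lower. On the log2(value + 1) scale the difference in Pln, PAB minus sham, was -1.15 with a standard error of 0.27 in limma. In bulk tissue, fewer cells that express a gene and less of its RNA per cell cannot be told apart, which holds for each difference described here.

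Cacng6 had 77.6, 77.6 and 127 normalized reads in sham replicates 1, 2 and 3, and 1.07, 4.96 and 4.97 in PAB replicates 1, 2 and 3. Sham replicate 3 stood above the other sham libraries, PAB replicate 1 was the lowest of all, and the groups did not overlap. The mean of Cacng6 was 94.0 ± 28.5 (SD, n = 3) in sham and 3.66 ± 2.25 (SD, n = 3) in PAB, which is 25.7-fold lower. Its log2 difference, PAB minus sham, was -4.46 with a standard error of 0.52, a value that the added 1 holds down because the PAB values are so low. The place of Cacng6 among the decreases depends on the number added before the logarithm, at rank 1 of 617 with 1 and at rank 5 with 0.1, where Ces1d and 2010001K21Rik, which are at or near 0 in PAB, came before it. Pln came at ranks 263 and 269.

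**Figure D1:**
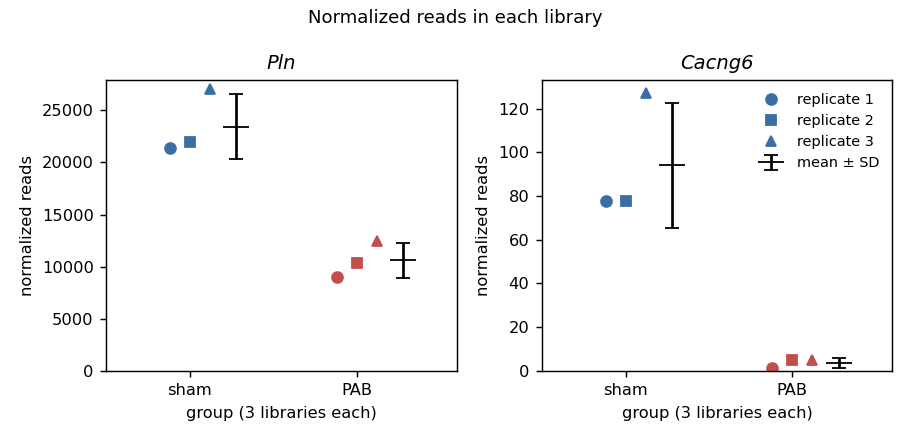
Normalized reads of Pln (left) and Cacng6 (right) in the 3 sham and 3 PAB libraries, on linear axes that start at 0 and differ between the panels. Each symbol is 1 library and the bar is the mean ± SD; Pln lies between 9037 and 12438 in PAB against 21385 to 27039 in sham, and Cacng6 does not exceed 4.97 in PAB.

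The depth behind these values differs greatly between Pln and Cacng6. The value that 1 read is worth can be read from the low values, which in each library, up to 50 times that value, were whole multiples of it to within 0.1 of a read. It was 1.07 normalized reads in PAB replicate 1. Counted this way Cacng6 had 82, 83 and 121 reads in the sham libraries and 1, 5 and 5 reads in the PAB libraries. For Pln the numbers were 22612, 23445 and 25782 reads in sham and 8485, 10405 and 12520 in PAB. The difference in Cacng6 therefore rests on 11 reads in all of PAB against 286 in sham, a ratio 24.9-fold lower after allowing for the size factors. Its exact 95% binomial interval of 13.7 to 50.5 describes counting error only and is no test of the difference. Without PAB replicate 1 the ratio of the Cacng6 means was 18.9, the smallest when any single library was removed, and without PAB replicate 3 it was 31.2, the largest. For Pln the smallest such ratio was 2.04, without sham replicate 3, and the largest 2.42, without PAB replicate 3.

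The size of the Pln difference depends on how the libraries are scaled. Median-ratio scaling, computed from the listed genes themselves, raised the PAB libraries relative to sham by a log2 value of 0.594. The log2 differences were then -0.56 for Pln, with a standard error of 0.32, and -3.96 for Cacng6, with a standard error of 0.54. Under it Pln had 16922, 16922 and 23868 normalized reads in the sham replicates and 11701, 13223 and 13905 in the PAB replicates, which still did not overlap. That scaling takes the listed genes as balanced around no change, although they were listed for a change.

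A ratio of both genes within a library is free of the size factor. Per kilobase of gene length, Cacng6 stood at 5.06, 4.94 and 6.55 per 1000 of Pln in sham replicates 1, 2 and 3. In PAB replicates 1, 2 and 3 it stood at 0.164, 0.671 and 0.557 per 1000 of Pln. Cacng6 was thus lower relative to Pln in each PAB library than in any sham library, and the group means were 5.52 ± 0.896 (SD, n = 3) and 0.464 ± 0.266 (SD, n = 3).

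Per kilobase, Pln had the highest mean level of the 616 listed genes with a length in sham, at 8499 ± 1131 (SD, n = 3) normalized reads per kilobase, and came at rank 11 in PAB, at 3841 ± 623 (SD, n = 3). Cacng6 went from rank 253 in sham, at 47.6 ± 14.4 (SD, n = 3) normalized reads per kilobase, to rank 590 in PAB, at 1.85 ± 1.14 (SD, n = 3). Pln was therefore the more abundant of both genes in each library.

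Around Pln and Cacng6, 9 lists of calcium handling genes with 146 symbols were considered, of which 12 genes were in the table. Without Pln and Cacng6, 10 of the other 10 had an adjusted p under 0.05 in limma, 6 lower and 4 higher in PAB. Among all 617 listed genes 100% had, 53.0% lower and 47.0% higher, so nothing is read from the counts. The median log2 difference was -1.01 over the 10 and -1.03 over the 617. Under the median-ratio scaling 6 of the 10 passed, 4 higher and 2 lower, against 60.8% higher and 39.2% lower among 477 genes passing in all. Cacna1a, Camk2a, Camk2b and Ppp1r1a no longer passed, and each of the 10 kept its direction.

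Next to Pln in the list of SR calcium uptake, 2 of 12 symbols were in the table, Pln itself and Hrc, which encodes a histidine-rich calcium-binding protein of the SR lumen. Hrc had 3209.9, 3003 and 3815 normalized reads in the sham libraries and 1081, 1487 and 1371 in the PAB libraries. Like Pln, Hrc had its highest sham value in replicate 3 and its lowest PAB value in replicate 1, and its log2 difference was -1.35. Per kilobase and within a library, Hrc stood at 161, 147 and 152 per 1000 of Pln in sham and at 129, 155 and 119 in PAB, so that the ratio of Hrc to Pln overlapped between the groups. Atp2a2, which encodes the pump that phospholamban inhibits, was not analysed here.

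Of the list on kinase and phosphatase control of phospholamban, 3 of 24 symbols were in the table and 3 of 3 were lower in PAB, beside 53.0% of all listed genes. Camk2a, which encodes a CaMKII subunit, stood at 713 ± 60.9 normalized reads (SD, n = 3) in sham and at 331 ± 35.9 (SD, n = 3) in PAB. Camk2b, another CaMKII subunit, had 119 ± 8.14 (SD, n = 3) in sham and 58.9 ± 5.05 (SD, n = 3) in PAB. The other CaMKII genes of that list, Camk2d and Camk2g, and the protein kinase A genes Prkaca and Prkacb were not in the table. The level of either kinase as a whole is therefore not known from these values. Ppp1r1a encodes an inhibitor of protein phosphatase 1, the enzyme that removes phosphate from phospholamban, and had 124 ± 2.46 (SD, n = 3) in sham and 61.6 ± 28.4 (SD, n = 3) in PAB. In PAB replicate 3 Ppp1r1a reached 94.4 normalized reads, well above the other PAB libraries. The phosphorylation of phospholamban itself is a protein measure that these RNA values do not give.

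The coding sequence of Pln is shown because CaMKII, of which that list holds subunits, phosphorylates the protein it encodes. It is identical in the 6 Pln transcripts of GENCODE and lies in 1 exon at chr10:53343864-53344022 on the plus strand of GRCm38, with codons 16 and 17, which encode the residues phosphorylated by protein kinase A and CaMKII, in capitals.
Pln coding sequence: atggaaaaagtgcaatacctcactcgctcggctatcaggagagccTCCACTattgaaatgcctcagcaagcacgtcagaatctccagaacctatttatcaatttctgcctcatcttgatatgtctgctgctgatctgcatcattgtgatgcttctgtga
The run has 159 bases, 52 codons and a stop codon.

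Beside Cacng6, no other symbol of the 20 auxiliary channel subunits and inhibitors was in the table. Of 10 pore-forming subunits 2 were, and both were lower in PAB, beside the same 53.0%. Cacna1g, which encodes the pore of a T-type channel, had 1192, 988 and 965 normalized reads in the sham libraries and 400.4, 351 and 323 in the PAB libraries. The groups lay far apart in Cacna1g, with a log2 difference of -1.55, smaller in size than that of Cacng6. Cacna1a, the pore of a P/Q-type channel, had a log2 difference of -1.02, and its lowest sham library, at 192, was close to its highest PAB library, at 177. Relative to these pores Cacng6 was the gene with the larger decrease in all 3 PAB libraries.

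Of 24 symbols of SR calcium release and its junction 3 were in the table, and unlike Pln 3 of 3 were higher in PAB, beside 47.0% of all listed genes. Casq1 encodes a calsequestrin, which binds calcium in the SR, and stood at 210.3 ± 41.5 normalized reads (SD, n = 3) in sham and at 705 ± 190.2 (SD, n = 3) in PAB. Ryr3, a calcium release channel, and Sypl2, a protein of the triad junction, had log2 differences of 3.60 and 2.51 from sham means of 5.46 and 15.0. Casq1, Ryr3 and Sypl2 were highest in PAB replicate 1. How many of all listed genes were highest there was not counted, so no link to Pln or Cacng6 is read from this. Rcan1, an inhibitor of calcineurin and the 1 listed of 19 calcium sensors and calcineurin genes, had 1638 ± 79.0 (SD, n = 3) in sham and 3326 ± 697 (SD, n = 3) in PAB. Exons of Ryr3, Casq1 and Cacna1a overlap those of other genes on the opposite strand over 916, 156 and 435 bases, which makes their values uncertain. None of the symbols on calcium export and exchange, store-operated and other entry, or mitochondrial calcium was in the table.

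**Figure D2:**
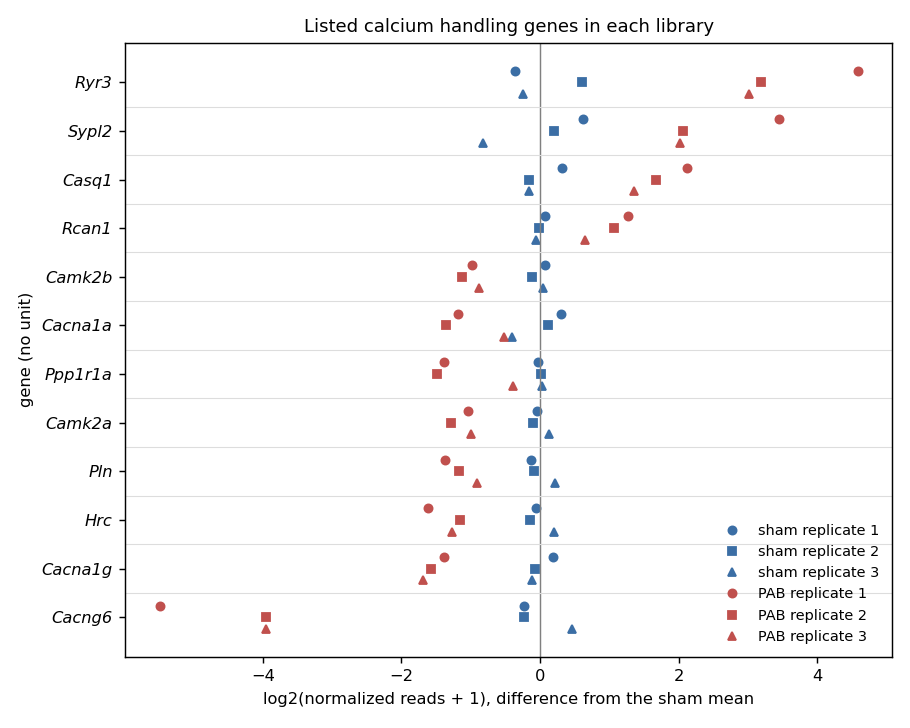
Difference of each library from the mean of the sham libraries, in log2(normalized reads + 1), for the 12 listed calcium handling genes, with each symbol 1 library. Cacng6 lies farthest to the left, Pln lies among the 8 genes that are lower in PAB, and Ryr3, Sypl2, Casq1 and Rcan1 are higher.

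Ordered by level per kilobase among these 12 genes, Pln came first in both groups, and its libraries overlapped those of no other gene. Cacng6 came at place 8 in sham, between Ppp1r1a and Cacna1a, without overlap with either. In PAB Cacng6 was at place 12, after Ryr3 at 4.41 ± 2.89 (SD, n = 3) normalized reads per kilobase, and although the libraries of the pair did not overlap, its distance to Ryr3 was within 1 SD of Ryr3. Hrc was at place 2 in sham and place 3 in PAB, where Rcan1 stood between it and Pln.

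None of the 13 symbols on the cardiomyocyte marker list was in the table, so that list gives no check of the labelled tissue. Of 14 marker lists, 9 had a listed gene, 11 genes in all, and none of these was at 0 in any library. Of the conduction system list 2 of 9 were in the table, Hcn4 and Cacna1g, with Cacna1g the most abundant. The list summed to 1245, 1060.5 and 1039 normalized reads in sham and to 409, 373 and 335 in PAB, so that the sum was lower in PAB, as 53.0% of all listed genes were. Of 8 atrial markers Stard10 was listed, with 326, 453 and 311 normalized reads in sham and 54.3, 102 and 133 in PAB. Of 14 skeletal muscle markers Tnni2 was listed, with 38.8, 44.0 and 35.7 in sham and 2.13, 2.98 and 12.9 in PAB. These markers shared with Pln and Cacng6 the direction between the groups, and their part in the result was not tested. Listed markers of other lists were higher in PAB and are given under other observations, so nothing is read from the shared direction.

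Profiles like that of Pln were sought by the root mean square, over the 6 libraries, of the difference between genes in log2(value + 1) minus the gene's own sham mean. Nearest to Pln came Thsd4 at 0.053, Rxrg at 0.11, Yipf7 at 0.11, Ttc27 at 0.12 and Krt222 at 0.12, where the median of the other listed genes was 1.44. Thsd4 had 215, 207 and 275 normalized reads in sham and 85.2, 107 and 120.2 in PAB. Its libraries had the same order as those of Pln within PAB, with replicate 3 highest in both groups. The search itself selects for such a likeness, so nothing further is read from it. Many genes lie close to Pln on this measure, and with a library left out between 1 and 3 of its 5 nearest genes were shared.

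Nearest to Cacng6 came Pla2g5 at 0.33, 2010001K21Rik at 0.59, Ces1d at 0.63, Ppil6 at 0.77 and Dbh at 0.91, with a median of 2.49 over the other listed genes. Pla2g5, a secreted phospholipase, had 366, 331 and 383 normalized reads in sham and 10.7, 17.9 and 26.8 in PAB. Like Cacng6 it kept only a small remainder in each PAB library, a likeness that the search selects for, and Ces1d was listed at 0 in all 3 of them. Dbh, which encodes dopamine beta-hydroxylase and was 1 of 9 neuronal and Schwann cell markers, had 122, 151 and 99.6 in sham and 8.52, 5.95 and 13.9 in PAB. Reads of 2010001K21Rik and Ces1d can be shared with other genes over stretches of 1250 and 121 bases, so their values are uncertain.

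In GRCm38, Pln (ENSMUSG00000038583) lies at chr10:53337667-53345987 on the plus strand, inside the gene Cep85l, which runs on the minus strand. Its first exon is noncoding, and the coding part lies in the last exon, or the one before it in 1 of the 6 transcripts. Of the 2759 exonic bases of Pln, 1644 or 59.6% are overlapped by exons of Gm47644 on the minus strand and 141 by exons of Cep85l. Whether reads were counted by strand is not given in the sources used here, so reads of Pln and of these partners cannot be told apart and the Pln value is uncertain to that extent. Gm47644 was listed with between 0.529% and 0.837% of the Pln value in a library, and its log2 difference was -1.20 beside -1.15 for Pln.

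Cacng6 (ENSMUSG00000078815) lies at chr7:3424195-3435667 on the plus strand, with 2 transcripts of 4 and 3 exons that differ at both ends and by an exon of 138 coding bases. None of its 1977 exonic bases is overlapped by an exon of another gene, and no other gene shares a stretch of 100 bases at 95% identity with it. Which of the 2 transcripts of Cacng6 was measured cannot be told from a value per gene. Among the 30 protein-coding genes that start within 1 Mb of Cacng6, Tfpt was listed, 196129 bases downstream, with a log2 difference of -1.07. Among the 9 such genes around Pln, Slc35f1 was listed, with -1.32.

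**Figure D3:**
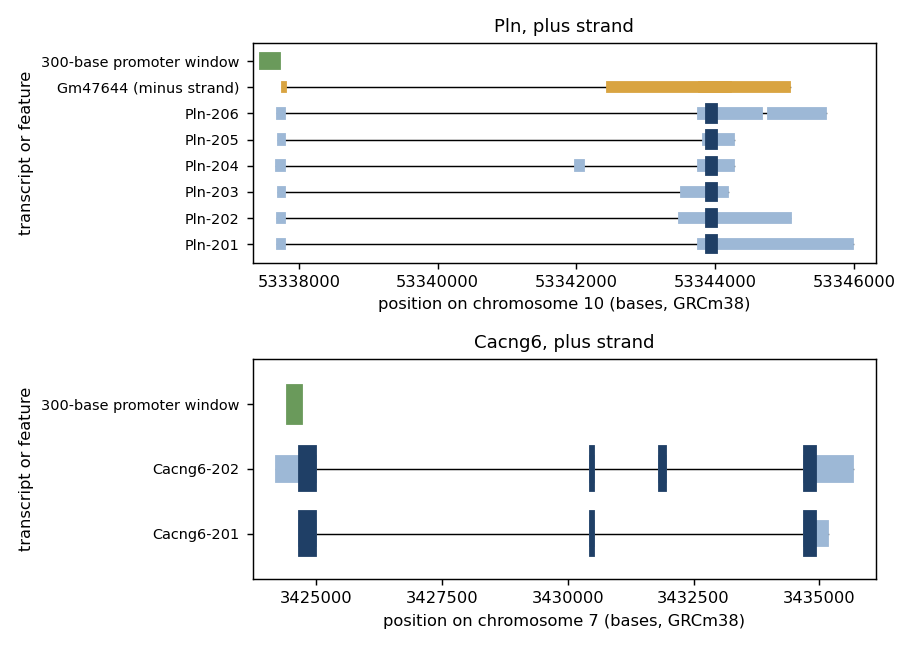
Transcripts of Pln (upper panel) and Cacng6 (lower panel) along the chromosome in bases of GRCm38, with exons as boxes, coding parts as taller dark boxes, exons of Gm47644 in the upper panel and the 300-base promoter windows. The coding part of Pln is a single block within the stretch that Gm47644 covers, and Cacng6-202 has 1 exon more than Cacng6-201.

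Since both genes were lower in PAB, the RefSeq promoter windows of Pln and Cacng6 (GRCm38.p6, 300 bases around the gene start) were searched on both strands for 10 motifs. The Pln window, at chr10:53337436-53337735, had 36.0% G and C, and the Cacng6 window, at chr7:3424412-3424711, had 52.7%, the same as the median of 32851 promoters. Both windows held 2 matches to the E-box CANNTG, found in 72.3% of all promoters, and 1 match to the hypoxia response letters ACGTG, found in 19.6%. Pln alone had 1 match each to TATAAA (in 13.6% of promoters), CCAAT (37.4%) and the GATA letters AGATAA (11.2%). Cacng6 alone had 1 match to the M-CAT letters GGAATG (14.7%). Neither window held TNAAGTG (NKX2-5, in 11.5%), TGACGTCA (cAMP response, 1.79%), the MEF2 element (3.19%) or the CArG box (1.63%). A match describes letters in the window and is not a binding site. The 231 bases of the Pln window that precede its first annotated exon, chr10:53337436-53337666 on the plus strand, are shown with 5 matches in capitals, in order the TATA letters, the GATA letters on the other strand, the CCAAT letters joined to an E-box, and the hypoxia response letters.
Pln promoter: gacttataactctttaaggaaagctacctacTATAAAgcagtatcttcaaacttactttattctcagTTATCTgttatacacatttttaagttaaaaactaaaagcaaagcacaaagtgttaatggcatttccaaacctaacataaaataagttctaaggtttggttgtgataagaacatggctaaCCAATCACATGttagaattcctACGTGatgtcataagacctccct
The Cacng6 window lies within an annotated exon and is not shown.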

How the data were processed

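The 6 libraries, 3 of each group, were grouped by the sample labels. The submitters' processing notes name HISAT2 2.0.5, featureCounts 1.5.0-p3, StringTie 1.3.3b, GATK 3.7 and the build mm10. The deposited values are called FPKM by the authors, but behave as another signal, counts divided by 1 size factor per library. Columns of the authors' own fold changes and p-values were not used. The planned test assumed FPKM; it suits a signal of this kind and was kept, in place of a test on counts. It was the two-sided test of limma (version 3.58.1, R 4.3.3, functions lmFit and eBayes, the latter with a trend) on log2(value + 1) over all 617 genes with a mean of at least 0.1, with Benjamini-Hochberg adjustment and a threshold of 0.05, tested on simulated data. Named were Pln, Cacng6, listed genes of the calcium handling and marker lists, the 5 nearest profiles of each gene, and listed genes within 1 Mb. The members and lists were chosen with earlier results of these data known. By Ensembl ID, 616 genes were found in GENCODE annotation of GRCm38, 598 of them at the same place. Shared stretches were sought with blastn 2.17.0. Other steps used Python 3.11.15, numpy 2.4.6, pandas 2.3.3, scipy 1.17.1 and matplotlib 3.10.9. Alternatives were another pseudocount, other filters, median-ratio scaling, eBayes without trend, a replicate block and leaving out each library.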

Additional observations from a re-analysis of the deposited data

How the results depend on the processing

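Pln and Cacng6 kept their direction under each of 12 alternatives. With each library left out, the log2 difference lay between -1.27 and -1.04 for Pln and between -4.72 and -3.95 for Cacng6. Of the other calcium handling genes 10 of 10 passed, and from 589 to 614 listed genes passed, from 272 to 287 higher and from 316 to 327 lower. Median-ratio scaling, by its shift of 0.594, moved Pln to -0.56, the calcium handling genes passing from 12 to 7 and those lower from 8 to 3, and all genes lower from 327 to 187. The counts of calcium handling genes include Pln, not past the threshold under that scaling, and Cacng6, and are read as no test of either. Not divided by length, Cacng6 stood at 3.95 in place of 5.52 per 1000 of Pln in sham, since the genes differ in length. A pseudocount of 0.1 gave -4.88 for Cacng6 and shared 3 of its 5 nearest genes. The filters removed no gene. The count test planned for recoverable reads was not run. Depth limits Cacng6 in PAB, at 1 to 5 reads a library.

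With the replicate block the log2 differences were -1.15 and -4.46 and limma called 616 genes, 10 of the 10 calcium handling genes other than Pln and Cacng6 among them. Same-numbered libraries had a mean correlation of their deviations across genes of -0.104, and 0 libraries correlated best with their own number. With so few libraries and genes listed for this contrast, these values cannot settle whether libraries of the same number share a batch.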

Other observations

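Among the other marker lists, 3 had listed genes that were higher in PAB. Of 8 epicardial markers Krt8 and Krt18 were listed, summing to 385, 309.5 and 335 normalized reads in sham and 1538, 1057 and 1099.7 in PAB, with Krt18 the most abundant. Of 9 endothelial markers Vwf was listed, with 1488, 1334 and 1283 in sham and 4791, 3251 and 1637 in PAB. Of 9 smooth muscle and pericyte markers Cnn1 was listed, with 122, 106 and 122 in sham and 681, 289 and 372 in PAB. All 4 genes were highest in PAB replicate 1. The share of all listed genes highest in that library was not counted, so no link to Pln or Cacng6 is read from this. Vwf shares stretches with 48 other genes and Krt8 with 2, so their values are uncertain. Of 12 fibroblast markers Dpt was listed and lower, with 4720.3, 4759 and 4649 in sham and 1487, 2281 and 2511 in PAB. Of 9 macrophage markers C1qa was listed and lower, with 666, 700.4 and 643 in sham and 312, 271 and 347 in PAB. No gene of the other leukocyte, erythroid, adipocyte or thymus and lung lists was in the table. The part of these markers in the result was not tested.

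Ppp1r1b, chosen after its values were seen, encodes another inhibitor of protein phosphatase 1 and had 49.2, 69.2 and 44.0 normalized reads in sham and 12.8, 9.92 and 5.96 in PAB. It was lower in PAB, as 53.0% of all listed genes were, without overlap between the groups, which holds for 97.1% of them.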
